A study of Mus musculus with 2 samples.

Results

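Mir335, Mir675, Mir483, Mir296 and Mir298 are microRNA genes of imprinted regions, in which one parental copy of a gene is expressed and the other is silenced. Mir335 lies within Mest, Mir675 within the noncoding RNA H19, Mir483 within the growth factor gene Igf2, and Mir296 with Mir298 near Gnas. They were chosen by their symbols in the GENCODE M21 annotation of mm10, and all 5 stood among the 2202 microRNA genes of the deposited tables. MicroRNA-seq was done on total RNA of the gastrocnemius, a calf muscle of mixed but mainly fast fibres, taken from B6CASTF1/J males at the age of 36 days. This strain is a first-generation hybrid of C57BL/6J with CAST mice, and the labels name no treatment. The 2 libraries, replicates 1 and 2, are described in the labels as different males, under a single donor identifier. They form 1 group, so levels are compared among genes and between the 2 libraries, with no test between conditions.

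A microRNA is cut from a hairpin precursor, and the mature strand of about the length of a small RNA read guides repression of messenger RNAs that pair with its seed, the bases near its 5′ end. MicroRNAs inside other genes are often made from the transcript of that host, so those of imprinted genes can follow its parental origin. Mest, Igf2 and the antisense noncoding RNA Nespas of the Gnas region are expressed from the paternal copy, and H19 from the maternal copy. Igf2 promotes growth before birth, whereas H19 carries Mir675, which in mice restrains placental growth and promotes muscle differentiation. The deposited counts do not separate the C57BL/6J from the CAST copy, so parental origin was not measured here.

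The mature sequences are shown because a count belongs to a whole hairpin, so its reads can carry any of 2 seeds. They come from RefSeq (build GRCm38.p6), whose hairpin positions equalled those of GENCODE M21 for all 5 genes. Capitals mark the seed, bases 2 to 8 from the 5′ end.
mmu-miR-335-5p: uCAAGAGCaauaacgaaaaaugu
mmu-miR-335-3p: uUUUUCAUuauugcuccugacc
mmu-miR-675-5p: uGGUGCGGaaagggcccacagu
mmu-miR-675-3p: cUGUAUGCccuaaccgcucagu
mmu-miR-483-5p: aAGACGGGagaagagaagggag
mmu-miR-483-3p: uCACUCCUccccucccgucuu
mmu-miR-296-5p: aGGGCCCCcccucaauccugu
mmu-miR-296-3p: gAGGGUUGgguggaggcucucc
mmu-miR-298-5p: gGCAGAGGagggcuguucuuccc
mmu-miR-298-3p: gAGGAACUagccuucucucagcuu

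No seed occurred in a second gene of this set, and none was shared with another of the 1679 mature microRNAs named in the RefSeq table. The hairpins of any pair had at most 7 bases in a row in common, including Mir296 and Mir298, which lie next to each other. None shared a stretch of 20 bases with any of the 1004 other hairpins searched. Among 141767 GENCODE transcripts, read on either strand, the mature sequences were found only in their own hairpin transcripts, except that the pair of miR-675 sequences also stood in H19 transcripts. Matches elsewhere in the genome were not analysed here. This bears on the counts because the layout of the tables implies that reads with several loci were added to no gene.

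Mir335 gave most of the reads, so its precursor is printed whole, with both mature arms in capitals.
Mir335 hairpin: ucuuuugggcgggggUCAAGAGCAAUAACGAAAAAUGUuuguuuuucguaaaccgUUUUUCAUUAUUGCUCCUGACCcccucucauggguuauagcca

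The positions place each hairpin relative to its host. Mir335 (ENSMUSG00000065501.1) lies at chr6:30741299-30741396 on the plus strand, in an intron of every Mest transcript that spans it, intron 2 in Mest-201. Mir675 (ENSMUSG00000076275.1) lies at chr7:142577064-142577147 on the minus strand. It is wholly exonic in the noncoding transcripts H19-202 and H19-205 (exon 1) and H19-206 (exon 2), and intronic in H19-204. Mir483 (ENSMUSG00000070140.1) lies at chr7:142654924-142654996, also on the minus strand, in intron 2 of Igf2-201, and 77776 bases separate it from Mir675. Mir483 is intronic in every Igf2 transcript that spans it. It also lies in intron 3 of Gm49394-201, a transcript of another protein-coding gene on the same strand. Mir298 (ENSMUSG00000065410.1, chr2:174267504-174267585) and Mir296 (ENSMUSG00000065521.1, chr2:174267047-174267125) lie 378 bases apart on the minus strand. No annotated gene overlaps either of them in GENCODE M21. The annotated end of Nespas, transcribed on their strand, is 13651 bases from Mir298, and the start of Gnas, transcribed on the other strand, is 16734 bases away.

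Reads counted on the strand of a microRNA gene numbered 4134880 in replicate 1 and 3219740 in replicate 2. Levels are given as CPM, the count per 1000000 of these reads, and they are not divided by hairpin length because the mature products are of similar length, 21 to 24 bases. Reads aligned to several loci made up 70.4% of all reads of replicate 1 and 73.3% of replicate 2. All 8 skeletal muscle microRNAs that were looked up had at least 10 counts in both libraries, and Mir206 had the highest count of them at 27262 ± 2019 CPM (SD, n = 2). That order covers uniquely aligned reads, since the Mir1a and Mir133a loci are duplicated and their counts are uncertain. The nerve and glia list reached 4285 CPM in replicate 1, against 1236 CPM in replicate 2, all of it at Mir338. The 3 loci of Mir124a and the 3 of Mir9 had 0 counts. Reads shared among the loci of Mir124a or of Mir9 would be added to no gene, so these 0 counts do not show absence. The liver microRNA Mir122 had 20.6 CPM in replicate 1 and 4.66 CPM in replicate 2. Endothelial Mir126a had 85413 CPM in replicate 1 and 95833 CPM in replicate 2, and the smooth muscle pair Mir143 and Mir145a summed to 85297 CPM and 93638 CPM. The sums of the leukocyte (1849 and 1901 CPM), red cell (405 and 394 CPM) and skin (229.8 and 212 CPM) lists were closer between replicate 1 and replicate 2. Single genes of a list did not all move alike. Mir223 had 1803 counts in replicate 1 and 967 in replicate 2, whereas Mir155 had 2941 and 2806. Most skin counts were of Mir203 (908 and 668), with Mir205 at 15 and 4 and Mir200c at 27 and 11.

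The first question was what share of the counted microRNA reads came from these loci. All 5 genes had at least 10 counts in both libraries, as did 13.4% of the 2202 genes in the tables. Together they held 38684 counts in replicate 1 and 23914 in replicate 2. That was 0.936% and 0.743% of counted reads, or 0.839% ± 0.136 (SD, n = 2). Most reads aligned to several loci and stand in no gene's total, and set against all reads the combined level was 1694 CPM in place of 8391 CPM. Mir335 made up 92.5% ± 0.469 of their sum, Mir483 4.90% ± 0.324, Mir298 2.14% ± 0.121, Mir675 0.282% ± 0.0445 and Mir296 0.190% ± 0.0202. One gene of the set therefore sets its total, and the levels of the others have to be read singly.

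Mir335, known in human breast cancer as a suppressor of metastasis, had 35906 counts in replicate 1 and 22038 in replicate 2. These are 8684 CPM (exact Clopper-Pearson 95% interval 8594 to 8774) and 6845 CPM (6755 to 6935), a mean of 7764 ± 1300.4 CPM. On the scale of total counts, the intervals of the libraries did not overlap. They cover counting error only, since reads copied by PCR are not independent molecules. Mir335 ranked in place 22 of 2202 in replicate 1 and place 24 in replicate 2. Of the 2202 genes, 1563 had 0 counts in both libraries. Genes whose reads align to several loci may rank too low, here and in the places given below. It was 3.53-fold below Mir206, with a log2 ratio of Mir335 over Mir206 of −1.57 in replicate 1 and −2.07 in replicate 2.

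The level of Mir335 was closest to those of Mir100, Mir30e and Mir139, by the distance between log2(CPM + 1) values over the 2 libraries (0.26, 0.32 and 0.34). Mir100 had 30833 counts in replicate 1 and 24264 in replicate 2, so it lay below Mir335 in the first library and above it in the other. With 2 libraries such likeness is of level, and gives no pattern over samples.

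Mir483, whose products act on growth and adipocyte genes in rodents, came next. Its counts were 1806 in replicate 1 and 1226 in replicate 2. The levels were thus 437 CPM (417 to 457) and 381 CPM (360 to 403). These intervals, on the scale of total counts, did not overlap, and the mean was 409 ± 39.6 CPM. Under the scaling used for the ratios between libraries below, the counting interval of Mir483 included equal levels. Its place was 96 in each library. Mir24-2, Mir34a and Mir107 stood closest to it, at 421 ± 19.7, 438 ± 45.2 and 383 ± 19.1 CPM, though Mir24-2 has a near-identical copy and its count is uncertain. Mir483 exceeded the myosin-intron Mir499, one of the skeletal muscle microRNAs looked up, in each library. The log2 ratios were 0.82 in replicate 1 and 0.41 in replicate 2.

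Mir298, reported in mouse to repress the secretase gene Bace1, had 796 counts in replicate 1 and 533 in replicate 2. The levels were 193 CPM (179 to 206) and 166 CPM (152 to 180), a mean of 179 ± 19.1 CPM. Its intervals overlapped at their edges, and it held place 138 in each library. Mir467e, Mir671 and Mir300 were closest in level. Of these, Mir467e lies in the imprinted Sfmbt2 gene and Mir300 between Dlk1 and Dio3, another imprinted region.

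Mir675, the product of H19, had 97 counts in replicate 1 and 75 in replicate 2. At 23.5 CPM (19.02 to 28.6) and 23.3 CPM (18.3 to 29.2) it had a mean of 23.4 ± 0.117 CPM, on the scale of total counts. This SD is below the counting error of about 10.2% in replicate 1 and 11.5% in replicate 2, so it is no estimate of how alike the animals are. It was the only member with opposite-strand reads in both libraries, 3 in each. The genes nearest to it in level were mmu-mir-3535, Mir1198 and Mir133a-1, the last with a near-identical copy that makes its count uncertain. Because its hairpin is exonic, reads of H19 fragments inside the hairpin would be counted with the mature products, and their part was not tested.

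Mir296, described in human endothelium as a microRNA of blood vessel growth, was the lowest. Counts were 79 in replicate 1 and 42 in replicate 2, which are 19.1 CPM (15.1 to 23.8) and 13.0 CPM (9.40 to 17.6). The mean was 16.1 ± 4.29 CPM and the intervals overlapped. Mir669c, Mir3061 and n-TSaga9, a gene the annotation lists as a microRNA, had the closest levels. These levels stand above what a count of 0 allows, 0.726 CPM for replicate 1 and 0.932 CPM for replicate 2.

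**Figure D1:**
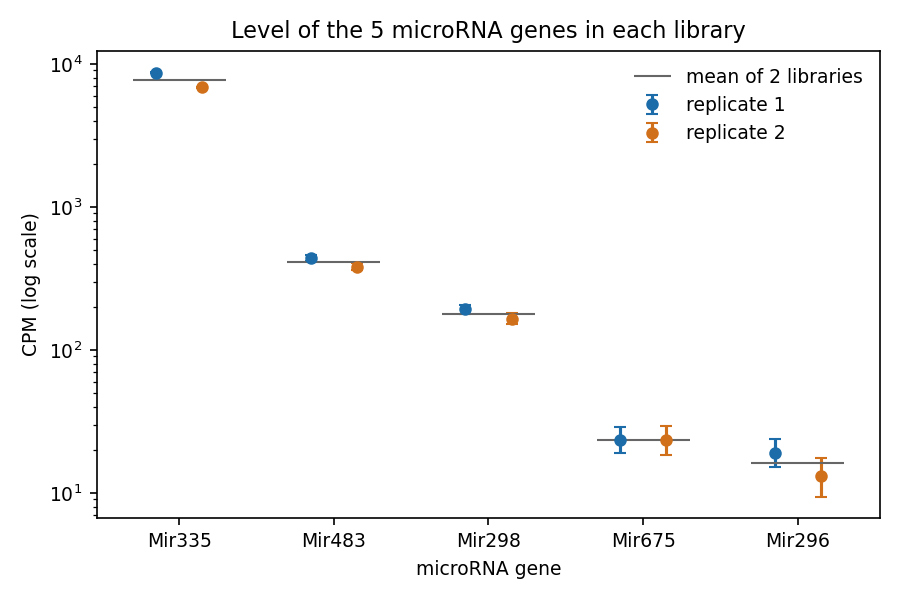
CPM of the 5 genes on a log axis, with a point for each library, replicate 1 left of replicate 2, its exact 95% counting interval as the bar, and the mean of the 2 libraries as a line. Mir335, at 8684 CPM in replicate 1 and 6845 CPM in replicate 2, stands far above Mir296, at 19.1 CPM and 13.0 CPM.

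The order of levels was Mir335, Mir483, Mir298, Mir675 and Mir296. All ratios between genes given here are ratios of reads. How evenly library preparation captured the different sequences was not measured, and neither the counting intervals nor the SD cover it. All 10 pairs kept their direction in both libraries, though with 2 libraries the smallest two-sided p of an exact sign-flip test is 0.5. Mir335 exceeded Mir483 18.9-fold, a log2 ratio of 4.24 ± 0.10 (SD, n = 2), and Mir675 328-fold (8.36 ± 0.24). Mir483 exceeded Mir298 2.28-fold. The log2 values were 1.18 in replicate 1 (exact interval 1.06 to 1.30) and 1.20 in replicate 2 (1.05 to 1.35). They lie closer together than counting error, so they are no measure of how stable this ratio is. Mir298 exceeded Mir675 7.60-fold (log2 ratio 2.93 ± 0.15). Mir675 and Mir296 are the neighbours in this order that counting error does not separate in each library. Their log2 ratio was 0.29 in replicate 1, with an exact interval from −0.15 to 0.74, and 0.83 in replicate 2, from 0.27 to 1.42.

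**Figure D2:**
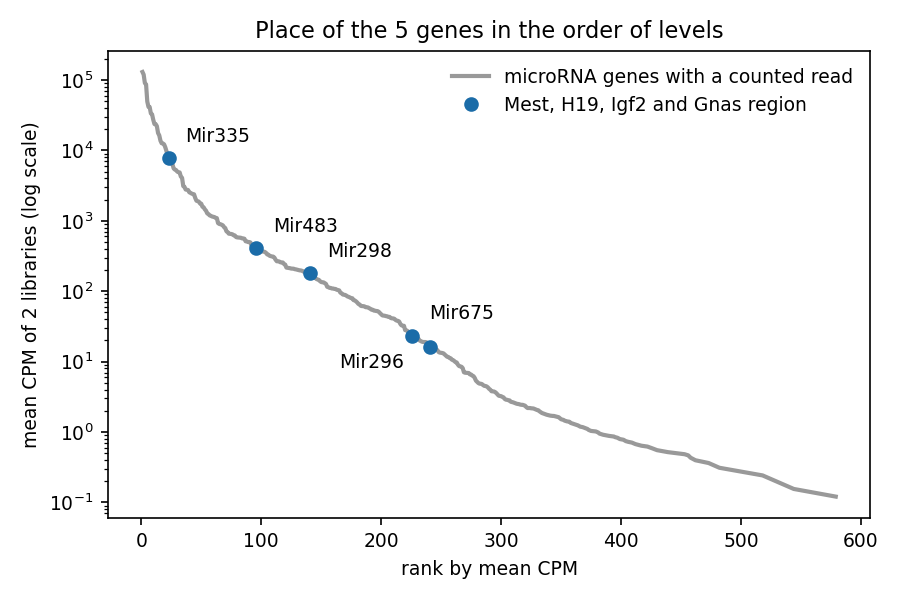
Mean CPM on a log axis against rank for all microRNA genes with a counted read (line), with the 5 genes as points. Mir335 sits in place 23 by mean CPM, Mir483 in place 96, Mir298 in place 141, Mir675 in place 226 and Mir296 in place 241. Genes whose reads align to several loci may stand too low.

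Neighbouring genes of one imprinted region also differed in read level. In the Gnas region, Mir298 exceeded Mir296 11.2-fold across a gap of 378 bases. The log2 ratio of Mir298 over Mir296 was 3.32 in replicate 1 (exact interval 3.00 to 3.69) and 3.65 in replicate 2 (3.21 to 4.16), or 3.49 ± 0.23. In the region of Igf2 and H19, where the hosts are expressed from opposite parental copies, Mir483 exceeded Mir675 17.3-fold. That log2 ratio was 4.21 in replicate 1 (3.92 to 4.53) and 4.02 in replicate 2 (3.69 to 4.39), or 4.12 ± 0.13. The sole other microRNA gene of the tables within 100 kb of a member, Gm27591, had no read in either library.

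A larger imprinted microRNA group, between Dlk1 and Dio3 on chromosome 12, gives these levels a scale. Its 67 genes held 5.39% of counted reads in replicate 1 and 4.22% in replicate 2. Their sum was 6.20-fold that of Mir335 alone in replicate 1 and 6.17-fold in replicate 2. Only Mir411 and Mir127 of that region lay above Mir335 in mean CPM, with log2 ratios of Mir335 over each of −0.65 ± 0.02 and −0.52 ± 0.06. Mir335 exceeded the third of them, Mir379, by 0.53 ± 0.02 and the fourth, Mir299a, by 1.70 ± 0.07 on the log2 scale. Mir483 lay below 15 genes of that region. Of its 58 genes with a hairpin sequence, 9 shared a stretch of 20 bases with another hairpin. Counts of such genes may be too low, and so may the sum of the region and the numbers of its genes above Mir335 and Mir483.

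The remaining question was how the 2 libraries differed, where a difference may be biological or technical. Ratios are of CPM + 1 in replicate 1 over replicate 2 on the log2 scale, scaled by TMM. TMM sets a weighted mean of the genes level between libraries after leaving out extreme ones, so the median ratio can differ from 0. They were computed for the 261 genes that averaged 10 CPM or more, as all 5 did, and 1 library stands on each side, so no difference has a replicate check. None of the 5 was past 2-fold, where 5.36% of the 261 genes were. The log2 ratio was 0.18 for Mir335 (exact counting interval 0.15 to 0.20), 0.03 for Mir483 (−0.07 to 0.14) and 0.05 for Mir298 (−0.11 to 0.21). It was −0.15 for Mir675 (−0.61 to 0.30) and 0.36 for Mir296 (−0.17 to 0.96). These intervals were computed from the counts without the added 1 CPM. For Mir335 the interval lay above 0, whereas the other 4 intervals held 0.

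**Figure D3:**
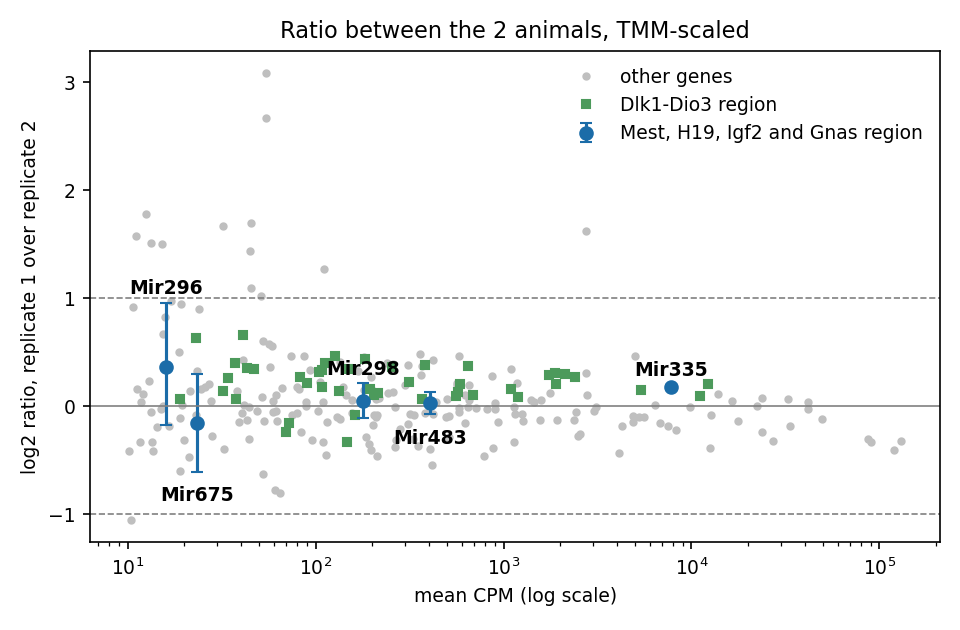
Log2 ratio of replicate 1 over replicate 2 (TMM-scaled) against mean CPM on a log axis for 261 genes, with the 5 genes in blue with exact 95% counting intervals, the Dlk1-Dio3 region in green, and dashed lines at 2-fold. All 5 lie within 2-fold, from −0.15 for Mir675 to 0.36 for Mir296.

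The difference of Mir335 between the libraries was middling among the 261 genes: 135 had a larger absolute ratio, and the median absolute ratio was 0.18. These genes reach down to a mean of 10 CPM, where counting error is larger than for Mir335. Genes of like level were not compared separately. Mir296 was passed by 67 genes, Mir675 by 150, Mir298 by 225 and Mir483 by 241. In the Dlk1-Dio3 region, 41 of the 45 genes with a ratio were higher in replicate 1, beside 55.9% of all 261 genes. The median ratio of the region was 0.21, against 0.05 over all 261 genes. Genes that lie side by side may not vary independently. Mir338 and Mir122 also stood higher in replicate 1, by the CPM given above, and their part in the ratio of Mir335 was not tested. In whole muscle, fewer cells of a type and less RNA per cell cannot be told apart.

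Direction depended on the scaling for 3 of the 5 genes. Under TMM, 4 of 5 were higher in replicate 1, beside 55.9% of all 261 genes. Scaling to the total count raised the median of all genes by 0.16, and 5 of 5 were then higher, beside 79.7% of all. DESeq2 size factors lowered the median by 0.05, and 2 of 5 were higher, beside 49% of all. Mir335 and Mir296 were higher in replicate 1 under each scaling, at 0.34 and 0.52 with the total count and 0.12 and 0.31 with DESeq2 size factors. Mir675 had −0.15 under TMM and 0.01 under the total count, and Mir483 and Mir298 took the values −0.02 and −0.00262 under DESeq2 size factors.

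**Figure D4:**
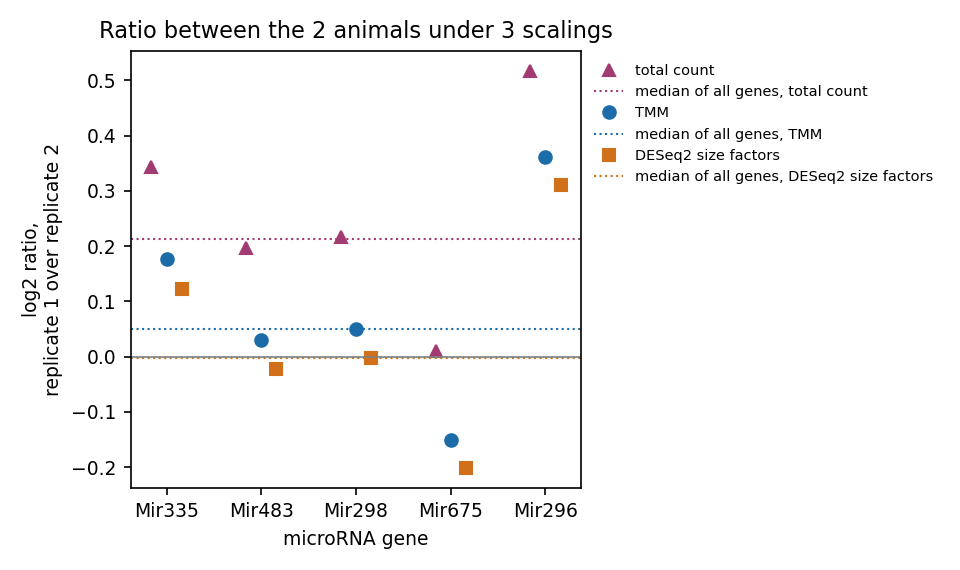
Log2 ratio of replicate 1 over replicate 2 for the 5 genes under total-count scaling, TMM and DESeq2 size factors, with the median of the 261 genes under each as a dotted line. Mir335 and Mir296 lie above the median under each scaling, Mir675 lies below it, and Mir483 and Mir298 lie near it.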

How the data were processed

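The authors deposited 1 table per library with raw read counts per microRNA gene, in columns that ignore strand, take the gene's strand or take the opposite strand. The deposited descriptions name mm10 as assembly and M21 as annotation. The sources used here do not give the aligner, counter or trimming. Counts on the gene's strand were used. The 4 rows without a gene were left out of library sizes. Of all reads they held 70.4% (several loci), 7.05% (unmapped) and 1.63% (outside genes) in replicate 1 and 73.3%, 6.02% and 1.51% in replicate 2. The layout implies that reads at several loci were added to no gene, in which case CPM describes uniquely aligned reads. CAST alleles that differ from mm10 can lower a count, which was not analysed.

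All libraries with labels entered as 1 group. CPM, exact Clopper-Pearson 95% intervals and ratios were computed in Python 3.11.15 with scipy 1.17.1. Pair ratios used counts + 0.5, and the limit for a count of 0 was 3 counts. The exact intervals of pair ratios and of ratios between libraries used the counts with nothing added. TMM factors (1.06 and 0.944) came from edgeR 4.0.16 and size factors from DESeq2 1.42.0. The libraries were counted as separate samples because their labels describe different males. Their counts differed beyond counting noise (chi-square divided by its degrees of freedom 111.5, 362 genes), so the tables are not copies of each other, which does not show separate animals. Their spread may be biological or technical. The ratio calculation was tested on simulated data. Named genes other than members were the 3 nearest in level to a member, microRNAs within 100 kb, the 4 highest of the Dlk1-Dio3 and Sfmbt2 regions with Mir184, markers, and seed sharers. The 5 members, the lists and the markers were chosen with earlier results of these data known. Alternatives changed the count column, library size, scaling, minimum, pseudocount and libraries.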

Additional observations from a re-analysis of the deposited data

How the results depend on the processing

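The combined level of the 5 genes, 8391 CPM, ran from 7427 without replicate 1 to 9356 without replicate 2. It was 11159 CPM in the column that ignores strand, whose library sizes lack 988119 and 833648 ambiguous reads. Against all reads, including those in no gene, it was 1694 CPM. TMM, DESeq2 size factors and a library size without the most abundant gene moved it by less than the SD. All 5 genes kept at least 10 counts in each library under the other strand column, and all 5 also passed a minimum of 20 counts. The log2 ratio of replicate 1 over replicate 2 for Mir335 was 0.15 in the column that ignores strand, 0.34 with total-count scaling, 0.12 with DESeq2 size factors and 0.15 with TMM on genes with 10 counts in both libraries. The ratios of Mir335 over Mir675, Mir298 over Mir296 and Mir675 over Mir483 moved by less than their SD in the column that ignores strand and with pseudocounts of 0 and 1. Leaving out a library gave 8.19 to 8.52, 3.32 to 3.65 and −4.21 to −4.02, which with 2 libraries is the spread itself. The number of genes past 2-fold, 14 at a minimum of 10 CPM, was 31 at 1 CPM, 41 with no minimum and 2 at 100 CPM. No paired analysis was possible because the series has 1 group. Depth limits Mir675 and Mir296, whose counts of 42 to 97 carry counting errors of 10.2% to 15.4%.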

Other observations

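Mir335 had the lowest hairpin GC content of the 5 genes. It was 42.9%, against 63.3% for Mir296, 63.1% for Mir675, 58.9% for Mir483 and 53.7% for Mir298. The median was 49.7% over the 252 hairpins with a RefSeq sequence and at least 10 counts in both libraries. Of these 252, 191 had a higher GC content than Mir335, and 12 had a higher one than Mir296. The mature arms also differed in guanine content, with 50.0% in miR-483-5p and miR-296-3p and 4.76% in miR-483-3p.

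Mir184 and the microRNAs of Sfmbt2 are other imprinted loci. Mir184 had 295 counts in replicate 1 and 99 in replicate 2, with a mean of 51.0 ± 28.7 CPM. Its log2 ratio of replicate 1 over replicate 2 was 1.02 under TMM, just past 2-fold, and 0.97 under DESeq2 size factors, short of it. Of the 119 microRNA genes within Sfmbt2, 6 had at least 10 counts in both libraries and 109 had none. Mir467e, Mir467d, Mir669o and Mir467c led them at 180.4 ± 28.1, 169 ± 40.5, 41.7 ± 3.62 and 18.99 ± 0.504 CPM. Many microRNAs of this gene have near-identical copies, so these counts are uncertain.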
